A study of Oryza sativa with 6 samples.

Results

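The genes described here are those annotated in words as NB-ARC immune receptors or disease resistance proteins and expressed in cold-treated rice panicles. They were chosen by their deposited annotation and by their read counts. A gene was a member when its name or description contained NB-ARC, NBS-LRR or disease resistance protein, when at least 3 of 6 libraries held at least 10 counts, and when it did not lie within the first 750000 bases of chromosome 11 or 12. Of 39367 genes in the table, 356 matched the words and 226 of these were members. A family column of the deposited table lists NB-ARC for 185 of the members and not for 41. It also lists NB-ARC for 68 expressed genes that the words did not match. The end clause removed 0 genes, and the count clause removed 130, of which 42 had 0 counts in every library. The count clause used levels over both genotypes, so the levels of the members are a description.

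NB-ARC is the nucleotide-binding module of a large family of intracellular plant immune receptors. It binds ADP in the resting receptor and ATP in the active one, and so works as a switch. A leucine-rich repeat region usually follows it, and in cereals a coiled coil, often of the Rx type, usually precedes it. A sensor receptor detects a pathogen protein directly or through a host protein that the pathogen alters, and some sensors act through a partner or helper receptor. The family is known in rice for resistance to blast fungus, bacterial blight and brown planthopper, and its genes lie in clusters of related copies.

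The RNA came from panicles of rice (Oryza sativa) in 6 libraries, 3 from CTB3-cr1 and 3 from Nipponbare, the wild-type japonica cultivar. The labels call CTB3-cr1 a knockdown of CTB3, while the column heads of the table call it a knockout. It is 1 line, and effects of CTB3 and of anything else that sets this line apart cannot be told apart. Both genotypes had received 1 day of the cold treatment abbreviated CS-PT, and untreated or infected panicles were not analysed here. CTB3 could not be checked, since no source used here pairs it with an identifier. The labels name the 3 libraries of each genotype biological replicates and give no more on plants or plots.

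Library totals ran from 14422565 to 16982031 counts. Of 11 floral MADS-box genes fixed as panicle markers, 11 were detected in each library, with summed levels of 1549 to 1721 CPM (counts scaled to library size with TMM factors) in CTB3-cr1 and 1453 to 1834 CPM in Nipponbare. The 8 tapetum markers summed to 1096 to 1431 CPM in CTB3-cr1 and 1719 to 2544 CPM in Nipponbare, so the sums did not overlap. The largest part of each sum was Os10g0484800, at 483.0 to 707.5 CPM in CTB3-cr1 and 951.6 to 1372 CPM in Nipponbare. Taken singly, the markers Os02g0120500, Os07g0549600 and Os09g0449000 overlapped between genotypes, and the others did not. The 13 detected of 15 green-tissue markers summed to 2488 to 2985 CPM in CTB3-cr1, and to 2438, 4925 and 2582 CPM in Nipponbare replicates 1, 2 and 3. Nipponbare replicate 2 stood apart on the first principal component of all genes and Nipponbare replicate 3 on the second. Log2 fold changes that moved by over 1.5 times when a library was left out are given without it, beside the gene or in the closing ranges. Some genes with a log2 fold change of at most 0.17 in size are excepted.

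Expressed NB-ARC genes were transcribed at low levels. Their median was 1.79 FPKM (fragments scaled by gene length and library size, which allows levels of different genes to be compared), with quartiles of 0.852 and 4.17 FPKM. The 25712 genes of the table that met the same count rule had a median of 9.51 FPKM, with quartiles of 2.90 and 24.3 FPKM. Of the 226 members, 209 (92.5%) lay below the median of the expressed genes, 143 below their lower quartile, and 3 at or above their upper quartile. Of all members, 16 reached 10 FPKM, and the 10 most abundant took 27.2% of the members' summed FPKM. The highest mean was 197.6 times the lowest. In all 225 pairs of neighbours in the order of mean FPKM, the ranges over the 6 libraries overlapped, so neighbouring ranks cannot be told apart. Neighbours among 226 sorted genes lie close together, so such overlap is likely in any case.

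The most abundant member was Os11g0588600, deposited under the name XANTHOMONAS ORYZAE PV. ORYZAE RESISTANCE 39, a locus of resistance to bacterial blight. It had 30.6, 37.9 and 34.3 FPKM in CTB3-cr1 and 30.8, 31.1 and 33.5 FPKM in Nipponbare. The genotypes overlapped, and its log2 fold change of CTB3-cr1 over Nipponbare was 0.10 ± 0.12 (SE), with a 95% interval from -0.18 to 0.39. Next came Os12g0586000, similar to ADR1, which in Arabidopsis is a helper receptor that relays signals from several sensors. It had 26.1, 35.0 and 29.8 FPKM in CTB3-cr1 and 29.3, 38.7 and 30.5 FPKM in Nipponbare, again with overlap, and a log2 fold change of -0.12 ± 0.16 (SE; interval -0.50 to 0.25). Os03g0254000, described only as an NB-ARC protein, followed with 20.5, 29.1 and 31.3 FPKM in CTB3-cr1 and 35.4, 31.2 and 24.3 FPKM in Nipponbare. The lowest of these 6 values came from CTB3-cr1 replicate 1 and the highest from Nipponbare replicate 1.

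Os11g0588400, an NB-ARC gene that lies next to Os11g0588600 on chromosome 11, came next with 19.5, 25.9 and 22.8 FPKM in CTB3-cr1 and 25.3, 26.3 and 18.3 FPKM in Nipponbare. Os07g0105900, the next, varied most within a genotype among the first 10, at 25.3, 15.7 and 34.4 FPKM in CTB3-cr1 and 23.1, 14.7 and 15.6 FPKM in Nipponbare. Its log2 fold change of 0.50 ± 0.30 (SE) had an interval from -0.21 to 1.20, and CTB3-cr1 replicate 2 lay near the lowest Nipponbare value. It was 0.21 without CTB3-cr1 replicate 3 and 0.75 without CTB3-cr1 replicate 2. Os01g0721000 averaged 19.9 FPKM over all libraries and carries the name of a heat shock protein 70 gene beside its NB-ARC description. The family column of the deposited table lists no NB-ARC for it, nor for Os11g0588600, Os04g0626500 and 38 other members. Os05g0240200, named OsWD40-115 after the WD40 repeat family, averaged 15.0 FPKM.

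Os04g0626500, similar to RGA2, a late blight receptor of a wild potato, had 20.4, 19.1 and 19.5 FPKM in CTB3-cr1 and 18.1, 16.9 and 17.9 FPKM in Nipponbare, so the CTB3-cr1 libraries all lay above the Nipponbare ones. Its log2 fold change was 0.15 ± 0.10 (SE; interval -0.08 to 0.38), and edgeR's quasi-likelihood test over all genes gave an adjusted p of 0.996. An unannotated locus with an NB-ARC domain, on chromosome 5 from 13272640 to 13274976, averaged 18.5 FPKM, and Os12g0270300 averaged 16.9 FPKM. Across the 10 most abundant members the log2 fold changes ran from -0.17 for Os03g0254000 to 0.50 for Os07g0105900.

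**Figure D1:**
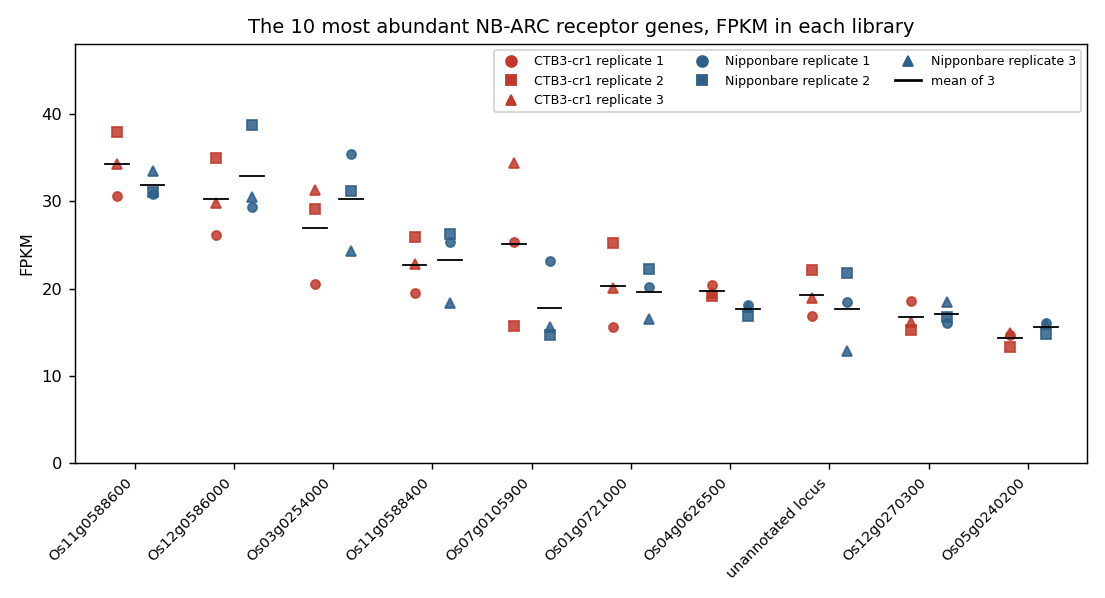
FPKM of the 10 most abundant NB-ARC receptor genes in each library, in order of mean level, with CTB3-cr1 left of Nipponbare for each gene; symbols mark replicates and bars the mean of 3. The genotypes overlap in 9 of these 10 genes, and Os04g0626500 is the exception, with 19.1 to 20.4 FPKM in CTB3-cr1 and 16.9 to 18.1 FPKM in Nipponbare. Of all genes tested, 5.11% were higher in CTB3-cr1 without overlap on CPM and 5.36% were lower.

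Members deposited under the name of a known resistance locus or resistance gene analog, or as similar to a known resistance gene, were spread over a wide range of levels. There were 19 of them, from 0.338 to 33.0 FPKM, with a median of 2.19 FPKM. Os08g0539700, named for the blast resistance locus Pyricularia oryzae resistance BH8, averaged 10.3 FPKM over all libraries, with 553, 720 and 776 counts in CTB3-cr1 and 725, 552 and 684 counts in Nipponbare, and the genotypes overlapped. Os12g0281300, the gene of the blast resistance locus Pi-ta, had 2.08, 1.97 and 2.14 FPKM in CTB3-cr1 and 1.93, 2.57 and 2.45 FPKM in Nipponbare. For all genes with such names, whether the alleles of these lines confer resistance was not tested. Os06g0146100, which carries the name Pyricularia oryzae resistance 9, had 3.37, 2.11 and 2.33 FPKM in CTB3-cr1 and 2.24, 1.84 and 4.02 FPKM in Nipponbare, where replicate 3 held the highest of the 6 values. The genotypes overlapped at both of these blast loci, and their log2 fold changes were -0.17 ± 0.18 for Os12g0281300 and -0.06 ± 0.33 for Os06g0146100 (SE).

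The neighbouring chromosome 8 genes Os08g0296600 and Os08g0296700, deposited with names of the YR series, averaged 5.96 and 2.21 FPKM over all libraries, with log2 fold changes of 0.00 ± 0.17 and -0.02 ± 0.19 (SE). Os11g0224900 and Os11g0225300, deposited as R-gene analog 3 and R-gene analog 5, averaged 2.24 and 3.62 FPKM, with log2 fold changes of -0.16 ± 0.19 and -0.02 ± 0.14 (SE). Loci at the low end, named here after their values were seen, were the blast resistance genes Os01g0149500 (Pit) at 0.710 FPKM, Os11g0689100 (named for the Pik locus) at 0.589 FPKM and Os12g0281600 (Pyricularia oryzae resistance 42) at 0.560 FPKM. The brown planthopper gene Os12g0559400 (Bph26) stood at 0.681 FPKM, and Os11g0629550, similar to the Arabidopsis bacterial resistance gene RPM1, at 0.338 FPKM. Of these 19 genes, 14 had a log2 fold change below 0 (73.7%, against 65.9% of tested members and 50.5% of all genes). Their median was -0.05, with a range from -0.37 to 2.04, and 0 were called (0.078% of all genes were). The highest value was that of Os11g0673600, which met the count rule through CTB3-cr1 alone.

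Between the genotypes, 0 members changed past the threshold. Of the 226 members, 223 passed the filter on low counts and were tested, and 0 of them had an adjusted p under 0.05 in edgeR's quasi-likelihood test, in which 20 of 25636 genes (0.078%) were called. The lowest adjusted p of a member was 0.711, for Os11g0673600, which met the count rule through CTB3-cr1 alone and so had to be higher there. DESeq2 called 0 of 226 members, against 0.714% of the genes it gave an adjusted p, and the authors' deposited table called 0 of 226, against 0.621% of its genes. An unadjusted p under 0.05 was reached by 8 members in edgeR (3.59%, against 5.25% of all genes). Of these, 1 was higher in CTB3-cr1 (0.448%, against 1.66%), again Os11g0673600, and 7 were lower (3.14%, against 3.6%). By limma-voom 7 members reached an unadjusted p under 0.05 (3.14%, against 4.86%) and by DESeq2 11 (4.87%, against 5.06%). These shares lay below or near the background, and their distance from it was not tested. Under 1% of all genes were called by each method, so 0 calls do not set the members apart.

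For most members the data also limit how large a difference could be. The 95% interval of the log2 fold change lay within -1 and 1 in 133 tested members (59.6%, against 69.3% of all genes), so a 2-fold difference lies outside the interval of those genes. The median standard error was 0.28 for members and 0.22 for all genes. Beyond 1 on the log2 scale in either direction were 9 members (4.04%, against 4.56%). For the 68 members below 1 FPKM, of which 65 were tested, the median standard error was 0.43, so differences are bounded less closely there.

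The log2 fold changes of members leaned slightly below 0. Their median was -0.10, a fold of 0.934, against -0.003 for all genes tested, with quartiles of -0.30 and 0.06 and a range from -2.32 to 2.04. Values below 0 were found in 147 of 223 members (65.9%), against 50.5% of all genes. Members had a median level of 1.79 FPKM, against 9.51 FPKM for expressed genes, and no share was taken for other genes of their level. The lean has no test, since members are not replicates of a genotype. In RNA from whole panicles, fewer cells that express these genes and less RNA per cell cannot be told apart.

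**Figure D2:**
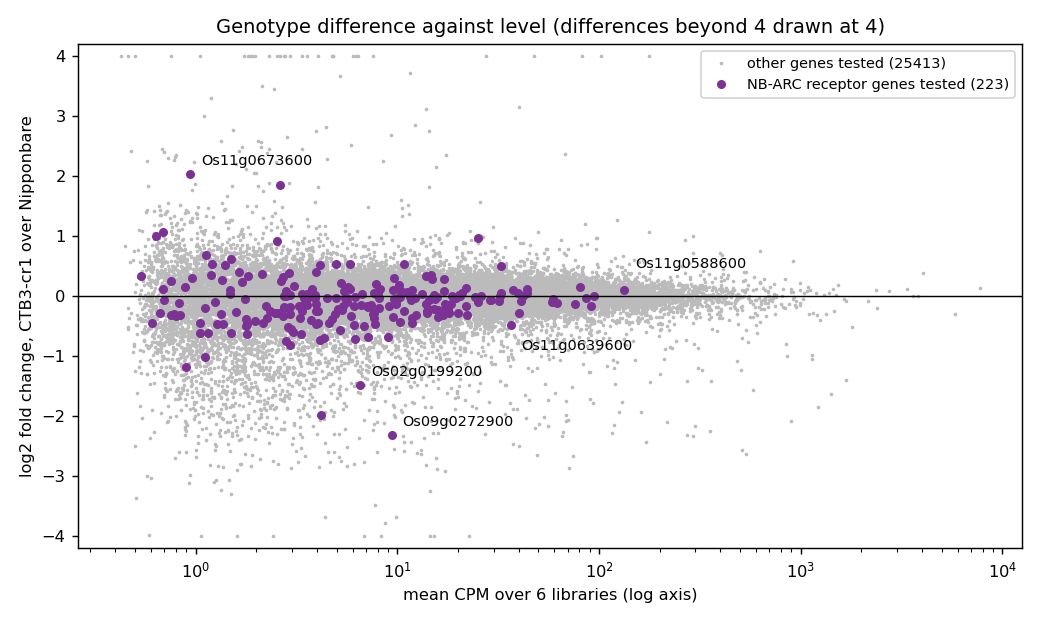
Log2 fold change of CTB3-cr1 over Nipponbare against mean CPM (log axis) for the 223 tested NB-ARC receptor genes and the 25413 other genes tested. Members lie around a median of -0.10, between -2.32 and 2.04, and the 5 labelled genes are described in the text.

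The lean was not even over libraries. A member's value in a library was set against its mean over the 6 libraries, on the log2 scale. The median of these deviations was -0.07, -0.08 and 0.00 in CTB3-cr1 replicates 1, 2 and 3, and -0.04, 0.12 and 0.09 in Nipponbare replicates 1, 2 and 3. Nipponbare replicate 1 thus lay among the CTB3-cr1 libraries. The library with a member's highest CPM was CTB3-cr1 replicate 1, 2 or 3 for 26, 25 and 26 members, and Nipponbare replicate 1, 2 or 3 for 24, 63 and 62 members. The lowest fell in CTB3-cr1 replicate 1, 2 or 3 for 49, 50 and 32 members, and in Nipponbare replicate 1, 2 or 3 for 36, 27 and 32 members. Nipponbare replicates 2 and 3 together held the highest value of 55.3% of members, against 41.1% of all genes. CTB3-cr1 replicates 1 and 2 held the lowest value of 21.7% and 22.1% of members, against 18.9% and 18.7% of all genes.

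Nipponbare replicates 2 and 3 stood apart on the principal components, and replicate 2 had the highest green-tissue sum. The tapetum sums, given above, were lower in every CTB3-cr1 library. The part of these values in the lean was not tested. Without Nipponbare replicate 3 the median was -0.06 for members, with 133 below 0, and 0.02 for all genes. Without Nipponbare replicate 2 it was -0.07 for members, with 137 below 0, and 0.00 for all genes. Without CTB3-cr1 replicate 1 it was -0.09 for members, with 135 below 0, and -0.01 for all genes. The summed CPM of the 226 members was 2480, 2657 and 2659 in CTB3-cr1 and 2601, 2795 and 2747 in Nipponbare. These sums averaged 2599 ± 102.8 CPM in CTB3-cr1 and 2714 ± 101.3 CPM in Nipponbare (SD, n = 3 each), a ratio of 0.957, and the genotypes overlapped.

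**Figure D3:**
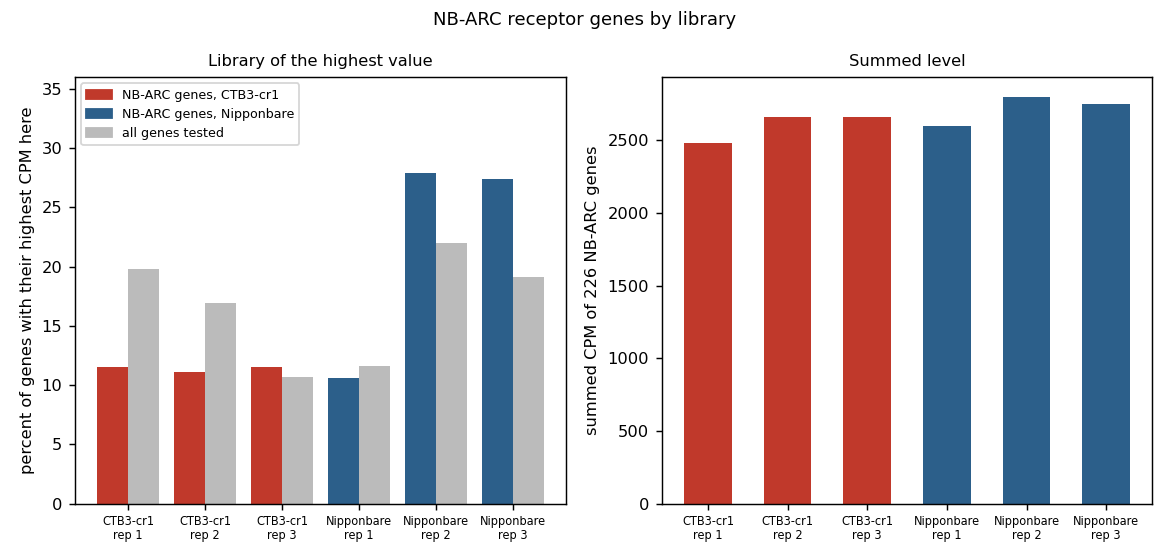
Left, percent of NB-ARC receptor genes (coloured) and of all genes tested (grey) whose highest CPM fell in each library; right, summed CPM of the 226 genes in each library. Nipponbare replicates 2 and 3 hold 55.3% of the members' highest values, while the summed level differs little, from 2480 to 2795 CPM.

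Among subgroups by description, 28 of the 33 members described as NBS-LRR had a log2 fold change below 0, with a median of -0.16 and 0 called. Of the 163 described as NB-ARC, 161 were tested, 103 were below 0 and the median was -0.10. Of the 30 described as disease resistance proteins, 29 were tested, 16 were below 0 and the median was -0.03. The 10 members whose description names an Rx N-terminal domain, the coiled coil of many cereal receptors, had a median of 0.05, with 3 below 0. No protein was searched for this domain, so other members may carry it. The 18 members outside the annotation had a median of 0.05, with 6 below 0, against -0.11 for the 208 annotated members. By level, the 53 members with at least 5 FPKM had a median of -0.01, the 105 members from 1 to 5 FPKM a median of -0.14, and the 65 tested members below 1 FPKM a median of -0.16. The 185 members for which the family column also lists NB-ARC had a median of -0.13, with 126 of 183 tested below 0 (68.9%), while the 41 for which it does not had a median of -0.002, with 21 of 40 tested below 0 (52.5%). None of these subgroups held a called gene, and their differences were not tested.

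The genotypes did not overlap on CPM in 18 tested members. In 6 members (2.69%, against 5.11% of all genes) the CTB3-cr1 libraries were all higher, and in 12 (5.38%, against 5.36%) they were all lower. The first share was below the background and the second close to it, and neither was tested. Of the members, 2 passed the count rule through CTB3-cr1 alone, so the rule itself placed them higher there.

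Os02g0199200, a gene with a disease resistance protein domain on chromosome 2, differed most in size among the lower ones. It had 32, 31 and 109 counts in CTB3-cr1 and 189, 131 and 127 counts in Nipponbare. CTB3-cr1 replicates 1 and 2 were far below Nipponbare, and replicate 3 was close to it. Its CPM was 3.46 ± 2.52 in CTB3-cr1 and 9.67 ± 2.27 in Nipponbare (SD, n = 3 each), for a log2 fold change of -1.48 ± 0.48 (SE; edgeR adjusted p 0.783). It also had the lowest adjusted p of any member in the authors' deposited table, 0.176. Without CTB3-cr1 replicate 3 the log2 fold change was -2.26 with an edgeR adjusted p of 0.228, and over all alternatives run the adjusted p of this gene was between 0.174 and 1.

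Os11g0639600, an NB-ARC gene at a moderate level, had 383, 535 and 572 counts in CTB3-cr1 and 669, 610 and 687 counts in Nipponbare. Its Nipponbare libraries were close together at 42.4 ± 1.79 CPM, and its CTB3-cr1 libraries lay at 30.5 ± 4.88 CPM (SD, n = 3 each). The log2 fold change was -0.48 ± 0.14 (SE; interval -0.81 to -0.15), with an unadjusted p of 0.0109 and an adjusted p of 0.751 in edgeR. Os04g0514600, similar to an NBS-LRR resistance protein, had 39, 30 and 34 counts in CTB3-cr1 and 60, 43 and 72 counts in Nipponbare, for a log2 fold change of -0.81 ± 0.28 (SE; edgeR adjusted p 0.806). Os03g0324600 had 88, 79 and 100 counts in CTB3-cr1 and 99, 90 and 232 counts in Nipponbare, and its log2 fold change of -0.69 ± 0.33 (SE) was -0.21 without Nipponbare replicate 3. Os08g0205100 and Os11g0655300 had log2 fold changes of -0.63 ± 0.28 and -0.59 ± 0.35 (SE), each from fewer than 100 counts in every library. The first was -0.39 without Nipponbare replicate 3, and the second -0.31 without CTB3-cr1 replicate 2.

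The members without overlap that were higher in CTB3-cr1 and reached a mean of 1 CPM showed smaller differences. Os01g0178900, similar to a symbiosis-related disease resistance protein, had 238, 277 and 232 counts in CTB3-cr1 and 170, 171 and 228 counts in Nipponbare, for a log2 fold change of 0.33 ± 0.17 (SE). Os12g0553200 stood at 18.7 ± 2.53 CPM in CTB3-cr1 and 15.3 ± 0.559 CPM in Nipponbare (SD, n = 3 each), for a log2 fold change of 0.29 ± 0.15 (SE). Os10g0370100 had a log2 fold change of 0.28 ± 0.15 (SE), which was 0.18 without CTB3-cr1 replicate 2, and overlaps another gene, so its reads may not all be its own. All 3 had edgeR adjusted p of 0.975 to 0.994.

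**Figure D4:**
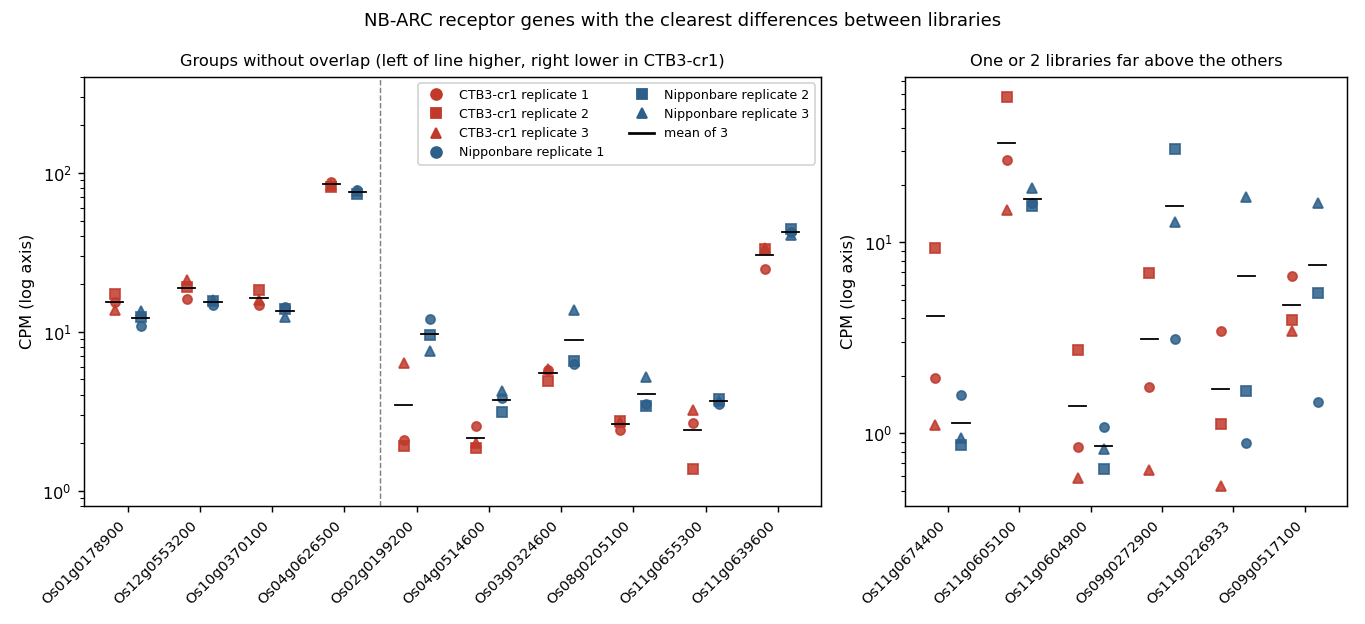
CPM (log axis) per library for the 10 named members whose genotypes did not overlap (left panel) and for 6 members with 1 or 2 libraries far above the others (right panel), CTB3-cr1 left of Nipponbare, with symbols for replicates and bars for the mean of 3. Os02g0199200 shows CTB3-cr1 replicate 3 close to Nipponbare, and in the right panel CTB3-cr1 replicate 2 or Nipponbare replicates 2 and 3 hold the high values.

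The largest log2 fold change of a member was that of Os11g0673600, a gene of the YR series of names, which was named here after its values were seen. It had 26, 35 and 12 counts in CTB3-cr1 and 8, 3 and 6 counts in Nipponbare. It entered the members through CTB3-cr1 alone, as did 1 other gene, so it had to be higher there, and its difference is a description. The log2 fold change was 2.04 ± 0.56 (SE). The nearby member Os11g0674400 had 30, 150 and 19 counts in CTB3-cr1 and 25, 12 and 16 counts in Nipponbare. There CTB3-cr1 replicate 2 alone was high, and the log2 fold change of 1.85 ± 0.80 (SE) was 0.42 without that library.

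In 10 members a single library stood at least 2-fold above every other. These were 4.42% of members, against 2.70% of expressed genes, and the high library was CTB3-cr1 replicate 2 for 3 members, Nipponbare replicate 2 for 2 and Nipponbare replicate 3 for 5. For CTB3-cr1 replicate 2 this was 1.33% of members, against 0.14% of expressed genes, for Nipponbare replicate 2 it was 0.885%, against 1.76%, and for Nipponbare replicate 3 it was 2.21%, against 0.556%. The genes described from here to the end of the paragraph were chosen after their values were seen. Os11g0605100 and Os11g0604900, neighbours on chromosome 11, both peaked in CTB3-cr1 replicate 2. Os11g0605100 had 415, 937 and 252 counts in CTB3-cr1 and 252, 216 and 325 counts in Nipponbare, and its log2 fold change of 0.97 was 0.30 without CTB3-cr1 replicate 2. Os11g0604900 had 13, 44 and 10 counts in CTB3-cr1 and 17, 9 and 14 counts in Nipponbare, and its log2 fold change of 0.69 turned to -0.26 without that library.

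Os09g0272900, with a disease resistance protein domain, had 27, 112 and 11 counts in CTB3-cr1 and 49, 427 and 216 counts in Nipponbare. Its 3 CTB3-cr1 values were themselves far apart, and its log2 fold change of -2.32 ± 0.98 (SE), the lowest of any member, moved to -3.70 when CTB3-cr1 replicate 2 was left out and to -1.35 when Nipponbare replicate 2 was. Os11g0226933 had 53, 18 and 9 counts in CTB3-cr1 and 14, 23 and 295 counts in Nipponbare. Its log2 fold change of -1.99 ± 1.16 (SE) turned to 0.42 without Nipponbare replicate 3. Os09g0517100, with 103, 63 and 59 counts in CTB3-cr1 and 23, 75 and 270 counts in Nipponbare, likewise turned, from -0.71 over all libraries to 0.47 without Nipponbare replicate 3.

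NB-ARC genes lay unevenly over the genome. Chromosome 11 held 67 members, 29.6% of them against 6.94% of all genes, and chromosome 12 held 32, 14.2% against 5.75%. Each of the other chromosomes held between 8 and 20 members. Of the 117 genes on chromosome 11 that matched the words, 57.3% were expressed, against 76.2% of 42 on chromosome 12 and 44.4% of 18 on chromosome 10. The 67 members on chromosome 11 had a median log2 fold change of -0.11 and the 159 on other chromosomes one of -0.09.

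**Figure D5:**
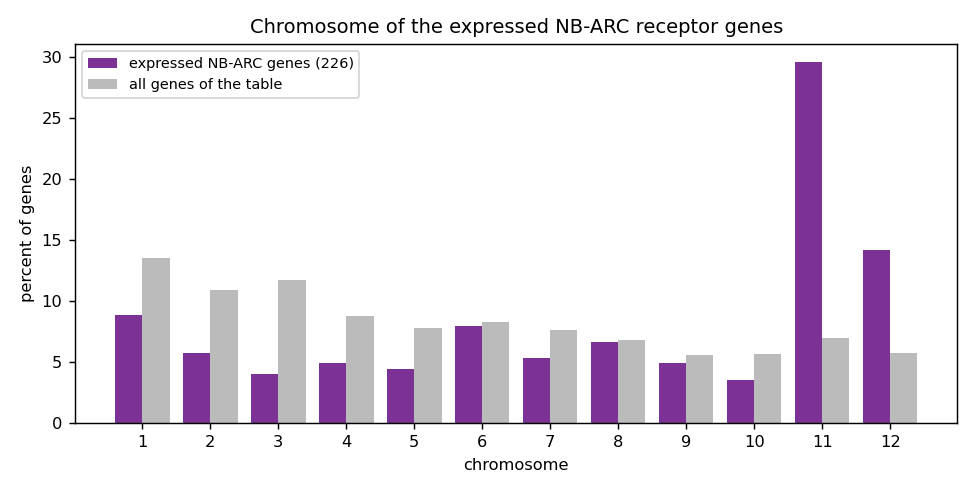
Percent of the 226 expressed NB-ARC receptor genes (purple) and of the 39367 genes of the table (grey) on each chromosome. Chromosomes 11 and 12 hold 29.6% and 14.2% of the members, above their 6.94% and 5.75% of all genes.

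Grouping members whose starts lay within 200000 bases of the next gave 51 clusters of at least 2, with 138 members, while 88 members lay alone. Positions are as the authors' table gives them, and no source used here names the build. Members of a cluster are often close copies, and no source used here says how reads that match several copies were assigned. Levels of cluster neighbours may therefore share reads.

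The largest cluster held 11 members on chromosome 11 from 6419861 to 6884768. Their mean levels ran from 0.167 FPKM for Os11g0222900 to 7.76 FPKM for Os11g0223400, 46.4-fold apart within one stretch. Os11g0223400 had 135, 239 and 253 counts in CTB3-cr1 and 138, 128 and 141 counts in Nipponbare. CTB3-cr1 replicates 2 and 3 were above all Nipponbare libraries and replicate 1 was level with them, for a log2 fold change of 0.54 ± 0.23 (SE; edgeR adjusted p 0.940). At the other end of the cluster, Os11g0229400 had 139, 88 and 106 counts in CTB3-cr1 and 131, 141 and 249 counts in Nipponbare, for a log2 fold change of -0.69 ± 0.29 (SE; edgeR adjusted p 0.938), which was -0.41 without Nipponbare replicate 3. In the cluster 9 of 11 log2 fold changes were below 0, and their median of -0.18 was -0.30 without Nipponbare replicate 1 and -0.01 without Nipponbare replicate 3.

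The same cluster holds R-gene analog 5 (Os11g0225300, plus strand) and its neighbour Os11g0225100 on the minus strand, an NBS-LRR gene, so that the 2 genes point away from each other. Their FPKM ratio, Os11g0225100 over Os11g0225300, was 1.24, 1.04 and 0.979 in CTB3-cr1 and 0.988, 1.37 and 1.39 in Nipponbare. The pair was therefore expressed at similar levels in all 6 libraries, with overlap between genotypes.

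The next in size were 3 clusters of 6 members, all on chromosome 11. In the one from 22310966 to 22540070, which holds the abundant genes Os11g0588600 and Os11g0588400, levels ran from 0.374 FPKM to 33.0 FPKM, 88.3-fold apart. Its median log2 fold change was 0.22, with 4 of 6 above 0, and it was between 0.09 and 0.21 when 1 library was left out. With a filter of 5 CPM in 3 libraries, which 4 of its members passed, the median was 0.02. In the one from 23308317 to 23418653 the median was 0.13, with 4 of 6 above 0, and it turned to -0.15 without CTB3-cr1 replicate 2 and to -0.07 without Nipponbare replicate 3.

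In the cluster from 27683640 to 27989128 all 6 members had a log2 fold change below 0, from -1.19 to -0.14, with a median of -0.35. It includes Os11g0684100, deposited as WRKY GENE 125, a name of the WRKY transcription factor family, beside an NB-ARC description. Os11g0684100 had 146, 169 and 223 counts in CTB3-cr1 and 215, 173 and 253 counts in Nipponbare, with overlap and a log2 fold change of -0.32 ± 0.18 (SE). Os11g0684700 had 64, 50 and 45 counts in CTB3-cr1 and 56, 62 and 134 counts in Nipponbare, and Os11g0687800 had 246, 294 and 315 counts in CTB3-cr1 and 332, 241 and 327 counts in Nipponbare. The genotypes overlapped in each of the 6, their adjusted p in edgeR was at least 0.976, and the median was between -0.56 and -0.16 when 1 library was left out.

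A family column of the deposited table lists NB-ARC for 68 further expressed genes whose names and descriptions did not match the words. Of these, 0 were called in edgeR (0.078% of all genes were), 3 had an unadjusted p under 0.05 (4.41%, against 5.25%), 48 had a log2 fold change below 0 (70.6%, against 50.5%), and the median was -0.14. One of them, Os11g0685500, is annotated as a hypothetical protein and lies inside the last of the clusters above, from 27734410 to 27736198. It had 187, 187 and 198 counts in CTB3-cr1 and 413, 421 and 280 counts in Nipponbare, so the genotypes did not overlap. Its log2 fold change was -1.05 ± 0.23 (SE) with an adjusted p of 0.464 in edgeR, while the authors' deposited table gives it an adjusted p of 0.0139. Os03g0849500, similar to the planthopper resistance gene BPH14-1, had 238, 327 and 192 counts in CTB3-cr1 and 495, 824 and 247 counts in Nipponbare, for a log2 fold change of -1.17 ± 0.48 (SE; edgeR adjusted p 0.927), which was -0.56 without Nipponbare replicate 2. The remaining gene with an unadjusted p under 0.05 in edgeR, Os11g0657850, went the other way. It had 27, 29 and 46 counts in CTB3-cr1 and 7, 15 and 18 counts in Nipponbare. Its log2 fold change was 1.26 ± 0.44 (SE), with an adjusted p of 0.806 in edgeR. All 3 genes were picked out after their values were seen.

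Other genes of immune signalling were followed in lists found by words in their names and descriptions. The words also find genes with other roles, such as ethylene response factors among the pathogenesis-related ones. Of 119 genes found, 77 were tested, 0 were called in edgeR (0.078% of all genes were), 3 had an unadjusted p under 0.05 (3.9%, against 5.25%), and the median log2 fold change was -0.04. Receptor folding depends on the chaperones HSP90, SGT1 and RAR1. Their list had 9 tested genes, a median of -0.05 and 0 called. SGT1 (Os01g0624500) stood at 71.4 ± 6.12 CPM in CTB3-cr1 and 65.8 ± 8.73 CPM in Nipponbare, and RAR1 (Os02g0535400) at 32.6 ± 3.94 CPM in CTB3-cr1 and 33.8 ± 4.24 CPM in Nipponbare (SD, n = 3 each). The chaperone Os06g0716700 of the HSP90 class stood at 134.4 ± 23.4 CPM in CTB3-cr1 and 155.8 ± 8.45 CPM in Nipponbare.

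Downstream, EDS1 and PAD4 are lipase-like proteins that relay receptor signals in Arabidopsis. Rice EDS1 (Os09g0392100) and PAD4 (Os11g0195500) had log2 fold changes of -0.05 ± 0.18 and -0.14 ± 0.19 (SE). The Rac and oxidase list holds the small GTPase switch of rice immunity and the enzymes of the oxidative burst. It had 21 tested genes, a median of 0.09 and 0 called. An unadjusted p under 0.05 in edgeR was reached by 2 of them (9.52%, against 5.25% of all genes), in opposite directions. Os03g0666200 (OsSWAP70A) had a log2 fold change of 0.26 ± 0.11 (SE; edgeR adjusted p 0.927). Os01g0849100, a Rac/ROP exchange factor, had one of -0.43 ± 0.17 (SE; edgeR adjusted p 0.916). RAC/ROP-TYPE GTPASE 1 (Os01g0229400) stood at 26.6 ± 1.91 CPM in CTB3-cr1 and 23.0 ± 0.415 CPM in Nipponbare (SD, n = 3 each), for a log2 fold change of 0.21 ± 0.11 (SE; edgeR adjusted p 0.987). Of the 9 genes found by pattern receptor words, most of them named for binding or regulating the receptor kinase XA21, 0 were called and the median was -0.11. Among them, the chitin receptor kinase CERK1 (Os08g0538300) had a log2 fold change of -0.11 ± 0.11 (SE). Pathogenesis-related words found 67 genes, of which 28 were tested, 0 were called and the median was -0.06. The words for defence kinases and factors were mostly short gene symbols and found 0 genes. Deposited names of the form WRKY GENE with a number do not match such symbols, so this does not show that these genes are absent.

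The salicylate list, built on the coactivator NPR1, had 6 tested genes, a median of -0.22 and 0 called in edgeR. NPR1 HOMOLOG 1 (Os01g0194300) had a log2 fold change of -0.04 ± 0.17 (SE). Os01g0639200, a cinnamoyl-CoA reductase-like gene that entered the list through its name as a suppressor of lesions mediated by the rice NPR1 homolog NH1, had 954, 1352 and 777 counts in CTB3-cr1 and 1632, 3980 and 2348 counts in Nipponbare. The genotypes did not overlap. Its log2 fold change was -1.47 ± 0.40 (SE) with an adjusted p of 0.692 in edgeR, and -0.93 without Nipponbare replicate 2, while the authors' deposited table gives an adjusted p of 0.0201.

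At the edge of the count rule, the members just inside were Os06g0276300 with 14, 10 and 8 counts in CTB3-cr1 and 8, 6 and 52 counts in Nipponbare, Os06g0524900 with 8, 10 and 10 counts in CTB3-cr1 and 10, 10 and 4 counts in Nipponbare, and Os11g0222900 with 15, 10 and 16 counts in CTB3-cr1 and 2, 10 and 7 counts in Nipponbare. Just outside were Os03g0566700 with 8, 5 and 15 counts in CTB3-cr1 and 11, 9 and 9 counts in Nipponbare, Os08g0193700 with 5, 6 and 1 counts in CTB3-cr1 and 9, 15 and 11 counts in Nipponbare, and Os07g0521500 with 3, 4 and 12 counts in CTB3-cr1 and 9, 2 and 11 counts in Nipponbare. Os06g0276300, Os06g0524900 and Os12g0204800 were the 3 members that the test filter left out.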

How the data were processed

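Per the labels' protocols, total RNA of rice panicles was sequenced on an Illumina NovaSeq. The submitters' processing notes name fastp 0.19.7, DESeq2 and HISAT2. No source used here names the build, the annotation, the counter or its strandedness. The deposited table holds raw counts and FPKM per library, per the file headers. The group means on a normalised signal scale, the log2 fold changes and the p-values are the authors' own comparison, per the file headers. Of 39369 lines, 2 without an identifier were left out (at most 0.000478% of a library's counts).

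Counts of all genes were tested with edgeR 4.0.16 in R 4.3.3 (filterByExpr, TMM, quasi-likelihood F test, Benjamini-Hochberg adjustment over 25636 genes, threshold 0.05). Standard errors are approximate, and 95% intervals use the t quantiles of the fit. p-values measure the spread between the libraries named replicates. Alternatives used DESeq2 1.42.0 and limma 3.58.1. The fit was tested on simulated data.

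The members, lists and alternatives were chosen with earlier results of these data known. Named genes were members called in edgeR or the authors' table (0), the 10 highest by FPKM, up to 6 per direction without overlap and with at least 1 CPM, up to 10 named for or similar to a resistance gene, those beside the count limit, and the largest position clusters; with 3 clusters tied, all were given. Protein and promoter sequences were not used here, so no grouping by protein features was made. Of the members, 38 overlap another gene, 36 of them on the other strand, and reads of such genes may be shared.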

Additional observations from a re-analysis of the deposited data

How the results depend on the processing

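The number of members called was 0 under each alternative run. The median log2 fold change of members was between -0.13 and -0.06, below 0 in each: -0.06 with library size alone, where all genes had a median of 0.03, and -0.13 for the 251 tested genes of the deposited family column, a choice made after seeing the data. Log2 fold changes below 0 numbered between 133 and 151 when 1 library was left out. With a filter of 5 CPM in 3 libraries 83 of 120 tested members (69.2%) were below 0, fewer because fewer were tested. The ratio of summed CPM was between 0.931 and 0.98.

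Correlations of same-numbered deviations were -0.274, 0.367 and -0.0708, so no pairing common to all replicate numbers was seen. The labels do not say whether same-numbered libraries share plants or a batch, and these values cannot exclude it. With the replicate number as a block 0 members were called, the median was -0.10 and 144 were below 0.

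For 36 members named with a log2 fold change, 33 of 633 combinations of gene and setting changed sign, and 0 passed the threshold. Leaving out 1 library moved 28 of the 36 by over 1.5 times at least once. The cause was not tested. With library size alone, Os08g0296700, Os08g0539700 and Os11g0225300 turned to 0.01, 0.03 and 0.01. Os08g0296600 turned to -0.00 with RLE factors, upper-quartile factors and limma-voom, and to -0.01 with the filter of 5 CPM.

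Leaving out 1 library gave sign changes within these ranges.
Os01g0721000 ran from -0.14 to 0.21, Os03g0254000 ran from -0.29 to 0.00, Os06g0146100 ran from -0.29 to 0.36, Os08g0296600 ran from -0.07 to 0.17, Os08g0296700 ran from -0.10 to 0.12, Os08g0539700 ran from -0.06 to 0.10, Os09g0517100 ran from -1.20 to 0.47, Os11g0225300 ran from -0.10 to 0.06, Os11g0226933 ran from -3.03 to 0.42, Os11g0588400 ran from -0.17 to 0.07, Os11g0604900 ran from -0.26 to 1.07, Os12g0270300 ran from -0.12 to 0.03, Os12g0586000 ran from -0.23 to 0.02 and the unannotated chromosome 5 locus ran from -0.05 to 0.30.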
